A study of Arabidopsis thaliana with 6 samples.

Results

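The 500 genomic regions with the most background in a ChIP-seq experiment on the flowering factor SOC1 are described here, out of 24032 regions in the deposited table. Members were chosen by their reads in the control libraries: for each region, the share of a library's listed reads was summed over the 3 untagged libraries, and the 500 highest sums were kept. Shoot apices of Arabidopsis thaliana came from 2 transgenic lines. In gSOC1-GFP, line 7, soc1-2 mutants carried a genomic SOC1 copy fused to GFP under the SOC1 promoter. In gSOC1, line 9, soc1-2 mutants carried the same copy without GFP. Both lines therefore carry an added SOC1 copy, and each genotype is represented by 1 line. Plants of both lines were grown for 15 short days and 3 long days, were collected at zeitgeber time 4, and had their chromatin precipitated with an antibody against GFP. Each genotype had 3 libraries, and nothing says whether these came from separate plant pools. A p-value across them therefore reflects how far these samples vary, and that variation may be technical.

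SOC1 is a MADS-domain transcription factor that integrates photoperiod, gibberellin and age signals and promotes flowering at the shoot apex. In chromatin immunoprecipitation, DNA that is bound by the tagged protein is recovered with an antibody, together with DNA that sticks to the antibody, the beads or other proteins. Plants without the tag give only the second kind of DNA, so reads in their libraries show where the recovery is uneven in the absence of the antibody's target. Accessible promoters, highly transcribed genes and multi-copy organelle DNA are known for such reads.

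The listed regions held 663108, 183668 and 262776 reads in gSOC1-GFP replicates 1, 2 and 3, against 396326, 41073 and 61963 reads in gSOC1 replicates 1, 2 and 3. Reads outside the listed regions were not analysed here. A single read is worth 0.000252%, 0.00243% and 0.00161% of the listed reads in gSOC1 replicates 1, 2 and 3, so a few reads in replicates 2 and 3 weigh as much in the sum as many in replicate 1.

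The summed untagged share of the members ran from 0.0475% to 0.167% with a median of 0.056%, and the median of all listed regions was 0.00904%. These values chose the members and carry no test. The last member had a sum of 0.04749% and the first region outside had 0.04747%. The last 5 members lay near CAT9, AT4G32290, AT5G03705, URH2 and AT1G08590, and the first 5 outside lay near AT5G20160, AT5G26680, SGR4, AT3G06895 and ATL5. Regions on either side of the limit thus differed by less than 1 read of any untagged library. The highest share came from gSOC1 replicate 1 at 421 members (84.2%), from replicate 2 at 55 members (11.0%) and from replicate 3 at 24 members (4.8%).

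The median member had 151, 16 and 20 reads in gSOC1-GFP replicates 1, 2 and 3, against 139.5, 5 and 6 reads in gSOC1 replicates 1, 2 and 3. The other listed regions had medians of 14, 5 and 8 reads in gSOC1-GFP and of 6, 1 and 2 reads in gSOC1. Members stood apart from the rest most clearly in replicate 1 of both genotypes. The untagged reads chose the members, so the gap in gSOC1 follows in part from the choice. Members with no read numbered 24 in gSOC1 replicate 2 and 5 in gSOC1 replicate 3, and every member had reads in the other libraries.

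Members held 12%, 5.75% and 5.11% of the listed reads in gSOC1-GFP replicates 1, 2 and 3, against 17.2%, 7.22% and 5.53% in gSOC1 replicates 1, 2 and 3. The means were 7.63% ± 3.82 in gSOC1-GFP and 9.99% ± 6.32 in gSOC1 (SD, n = 3 each), and the members make up 2.08% of the listed regions. The replicate number moved the share more than the genotype did, and the untagged values include the choice of members. When the 500 regions were chosen on 2 untagged libraries and measured in the replicate left out, they held 6.82%, 4.98% and 4.27% in gSOC1-GFP replicates 1, 2 and 3, against 6.99%, 4.74% and 4.2% in gSOC1 replicates 1, 2 and 3. These means of 5.36% ± 1.32 and 5.31% ± 1.48 (SD, n = 3 each) differed by less than the spread between replicates.

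**Figure D1:**
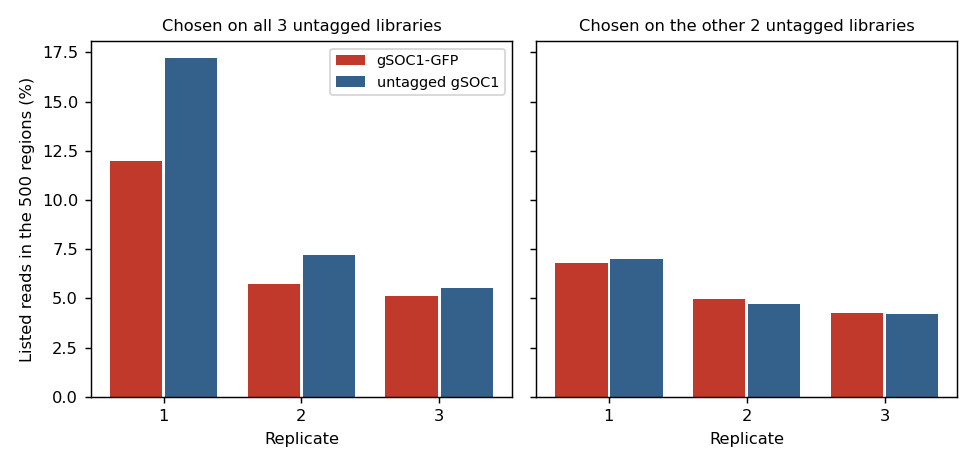
Percent of each library's listed reads (y axis) in 500 regions, by replicate (x axis), for gSOC1-GFP (red) and untagged gSOC1 (blue). On the left the regions were chosen on all 3 untagged libraries, and replicate 1 stands highest with 12% and 17.2%; on the right they were chosen without the replicate shown, and the bars of a pair lie close together.

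Of the members, 297 (59.4%) were among the 500 regions with the most reads in gSOC1-GFP replicate 1, against 67 and 70 in gSOC1-GFP replicates 2 and 3. In the untagged libraries 357, 146 and 120 members were among the top 500 of gSOC1 replicates 1, 2 and 3. Only 1 member stood in the top 500 of all 3 untagged libraries, 146 stood in 2 of these lists, 328 in 1 and 25 in none. The last regions in the top lists of the untagged libraries had 112, 7 and 9 reads in replicates 1, 2 and 3. These lists shared only part of their regions. Those of gSOC1 replicates 1 and 2 shared 65 of 500 regions (13.0%). Replicates 1 and 3 shared 58 (11.6%), and replicates 2 and 3 shared 35 (7.0%). Any 500 regions make up 2.08% of those listed, the share to set beside these overlaps and the gSOC1-GFP member counts above. The member counts in the untagged lists follow from the choice, which used the same reads. The lists of replicate 1 in the 2 genotypes shared 324 of 500, while those of gSOC1-GFP replicates 2 and 3 shared 307.

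The member in all 3 untagged top lists lay on chromosome 1 at chr1:11619754-11620357 (TAIR10), 3837 bp downstream of RCD1 and 5644 bp downstream of KAN2. It had 212, 30 and 56 reads in gSOC1-GFP replicates 1, 2 and 3, against 122, 9 and 13 reads in gSOC1. After scaling, its log2 enrichment was -0.04 ± 0.32 (SD, n = 3 pairs), so it showed no enrichment beyond its spread.

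Across the 500 members, Pearson's r of log2(reads + 1) was 0.83 between gSOC1-GFP replicate 1 and gSOC1 replicate 1 and 0.66 between gSOC1-GFP replicates 2 and 3. It was 0.32 for the pair of replicate 2 and 0.29 for the pair of replicate 3, and libraries of unlike number were as close, with 0.35 between gSOC1-GFP replicate 2 and gSOC1 replicate 3 and 0.32 between gSOC1-GFP replicate 3 and gSOC1 replicate 2. Over all 24032 regions, r was 0.82, 0.44 and 0.43 for pairs 1, 2 and 3, and 0.43 for both of these unlike combinations. Regions are not independent replicates, these coefficients also reflect depth and region length, and within the members they reflect the choice by untagged reads.

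Log2 enrichment is used for the difference in log2 scaled counts, gSOC1-GFP over gSOC1 of the same replicate number, with library sizes scaled by TMM (trimmed mean of M values) and a prior count of 1. Over the members its median was -1.0, 0.09 and 0.21 in pairs 1, 2 and 3, against -0.05, 0.46 and 0.39 over all listed regions. Values above 0 were found at 5.6%, 54.8% and 59.6% of members in pairs 1, 2 and 3, against 48.4%, 63.6% and 61.4% of all listed regions. Scaling by listed reads in place of TMM moved the median of all regions to 0.30, 0.14 and 0.13 and that of the members to -0.58, -0.27 and -0.06, so the sign of the members' median in pairs 2 and 3 depends on the scaling. Apart from the prior count, a scaling moves every region of a pair alike, so the difference between members and all regions changed little. For the mean of the 3 pairs, the members' median differed from that of all regions by -0.61 with TMM and -0.66 with listed reads.

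The untagged reads stand in the denominator of this ratio, so a low value follows in part from the choice itself. Members led by gSOC1 replicate 1 had medians of -1.03, 0.21 and 0.18 in pairs 1, 2 and 3. Members led by replicate 2 had -0.47, -1.15 and 0.33, and those led by replicate 3 had -0.49, 0.28 and -0.84. The lowest median of each class is in the pair whose untagged library led, which the split by that library fixes. In regions chosen without the pair measured, the median was -0.25, 0.46 and 0.41 in pairs 1, 2 and 3, beside -0.05, 0.46 and 0.39 over all listed regions. Scaled by listed reads, these medians were 0.14, 0.10 and 0.16, beside 0.30, 0.14 and 0.13. The regions chosen in this way passed the authors' FDR of 0.05 in the replicate left out at 28.2%, 8.0% and 9.0% for replicates 1, 2 and 3, where 10.1%, 2.86% and 3.16% of all listed regions did. Their median lengths of 392.5, 372 and 373 bp exceeded the 212 bp of all regions, and the part of length and read number in these shares was not tested.

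**Figure D2:**
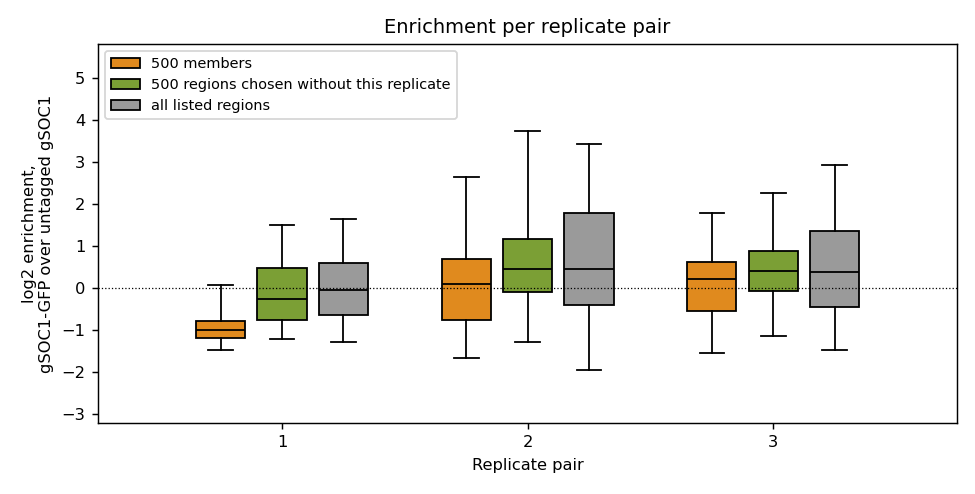
Log2 enrichment of gSOC1-GFP over untagged gSOC1 (y axis) in each replicate pair (x axis) for the members, for 500 regions chosen without that replicate, and for all listed regions. Boxes span the quartiles with the median as a line and whiskers reach the 5th and 95th percentiles; the members' box of pair 1 lies below 0 with a median of -1.0, and the held-out boxes lie nearer to those of all regions.

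By the authors' false discovery rate (FDR), which sets the tagged against the control library of the same number, 16 members (3.20%) passed 0.05 in all 3 replicates, where the background over all listed regions was 1.12%. Passing in single replicates were 31, 34 and 44 members (6.20%, 6.80% and 8.80%) for replicates 1, 2 and 3, beside 10.1%, 2.86% and 3.16% of all regions. Because the rule used the same untagged counts, nothing is read from these shares. With edgeR's quasi-likelihood test without a replicate block, 0 members passed an adjusted p of 0.05 in either direction, as did 0 of all regions (0.0%). At an unadjusted p under 0.05 that test had 0 members higher and 2 lower in gSOC1-GFP, beside 2.84% and 0.333% of all regions. With the replicate number as a block, 1 member was higher at an adjusted p under 0.05, beside 0.379% of all regions. DESeq2 called 3 of the 484 members to which it gave an adjusted p (0.62%). Of all listed regions it gave one to 5822, and it called 94 of these (1.61%). It left out few members but most other regions, so these shares rest on unlike bases.

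The 16 members past the authors' FDR had median reads of 269.5, 83.5 and 89.5 in gSOC1-GFP replicates 1, 2 and 3, against 86, 5 and 9.5 reads in gSOC1. The 254 other regions past it had medians of 139, 47 and 52 reads in gSOC1-GFP, against 11, 2 and 3 reads in gSOC1. The median log2 enrichment was 1.15 at the called members, with a range of 0.40 to 4.37, and 2.52 at the other called regions. Higher untagged reads, and with them a lower ratio, are what the choice of members selects, so these differences are a description. All 16 had a higher share of listed reads in gSOC1-GFP than in gSOC1 in each pair, but with TMM scaling 10 of them were above 0 in all 3 pairs, with the exceptions all in pair 1.

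The share of listed reads was higher in every gSOC1-GFP library than in every gSOC1 library at 11 members (2.2%; background 8.34%), and lower in every one at 2 members (0.4%; background 0.333%). The 11 all belonged to the 16 past the authors' FDR. With TMM scaling, 11 members (2.2%; background 16.5%) had a log2 enrichment above 0 in every pair and 16 members (3.2%; background 0.903%) had one below 0 in every pair.

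**Figure D3:**
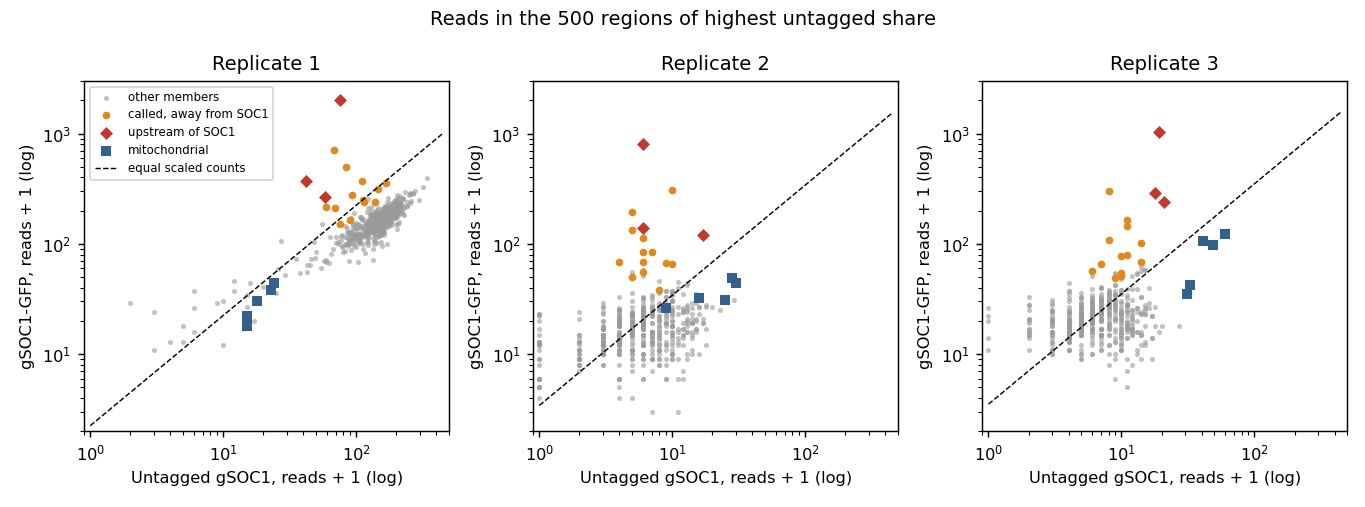
Reads + 1 in each of the 500 members in gSOC1-GFP (y axis, log) and in untagged gSOC1 (x axis, log) for replicates 1, 2 and 3. The dashed line marks equal counts after TMM scaling; in replicate 1 most members form a band below it, and the 3 regions upstream of SOC1 lie above it in each replicate.

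Upstream of the SOC1 start lay 3 members, of which those at 89 and 1975 bp were assigned to SOC1 and the farthest, beyond the 3 kb window, to AT2G45670. The region at chr2:18810951-18811322, centred 89 bp upstream, had 2018, 808 and 1038 reads in gSOC1-GFP replicates 1, 2 and 3, against 74, 5 and 18 reads in gSOC1. Its log2 enrichment of 4.37 ± 1.00 (SD, n = 3 pairs) was the highest of all members, and it was the only member that passed edgeR with the replicate block (adjusted p = 0.00937). Without the block its adjusted p was 1.0, and with the block but without replicate 3 no member passed.

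The region at chr2:18812818-18813227, 1975 bp upstream of SOC1, had 371, 139 and 291 reads in gSOC1-GFP, against 41, 5 and 17 reads in gSOC1, and a log2 enrichment of 2.41 ± 0.50. The region at chr2:18814290-18814662, 3428 bp upstream of SOC1 and 233 bp downstream of AT2G45670, had 264, 120 and 237 reads in gSOC1-GFP, against 57, 16 and 20 reads in gSOC1, and a log2 enrichment of 1.30 ± 0.38 (SD, n = 3 pairs each). It ranked 24th of all regions by untagged share, the highest of the 3. At all 3 regions the share of listed reads in every gSOC1-GFP library exceeded that in every gSOC1 library.

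Within 20 kb of the strongest region, 9 other regions were listed and no other was a member. Their summed untagged share reached 0.0363% at most, with a median of 0.0136%, against 0.0599%, 0.05% and 0.0856% at the 3 members in order of distance from SOC1. These sums chose the members, so the contrast with the neighbours is a description. The number of SOC1 copies in either line was not analysed here.

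**Figure D4:**
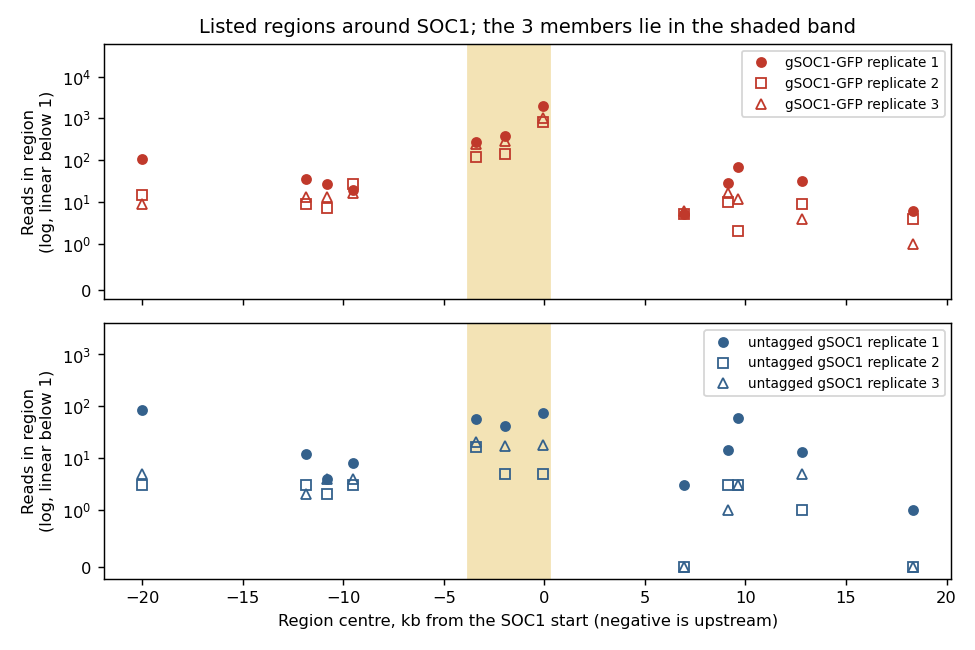
Reads in the listed regions around SOC1 (y axis, log with a linear part below 1) against the distance of the region's centre from the SOC1 start in kb (x axis), for the gSOC1-GFP libraries (top) and the untagged gSOC1 libraries (bottom). The 3 members in the shaded band have 120 to 2018 reads in gSOC1-GFP and 5 to 74 in untagged gSOC1, and the 9 other regions have at most 83 untagged reads.

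Away from SOC1, the most enriched member was at chr3:5216237-5216566 in the 3′ UTR of AT3G15470. It had 706, 310 and 301 reads in gSOC1-GFP replicates 1, 2 and 3, against 67, 9 and 7 reads in gSOC1, and a log2 enrichment of 3.02 ± 0.71 (SD, n = 3 pairs). With the replicate block its adjusted p in edgeR was 0.0665, above the threshold. At AOC4, an allene oxide cyclase of jasmonate synthesis, the member in the 3′ UTR had 374, 192 and 143 reads in gSOC1-GFP, against 110, 4 and 10 reads in gSOC1, and a log2 enrichment of 2.11 ± 1.57. The member 215 bp upstream of AT5G52660 had 497, 111 and 165 reads in gSOC1-GFP, against 83, 5 and 10 reads in gSOC1, and a log2 enrichment of 2.08 ± 0.62. In all of these the libraries of the 2 genotypes did not overlap in their share of listed reads.

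FAD5, a plastid fatty acid desaturase, had a member 178 bp upstream with 213, 67 and 68 reads in gSOC1-GFP, against 58, 5 and 13 reads in gSOC1, and a log2 enrichment of 1.06 ± 0.75 (SD, n = 3 pairs). AT3G12180 had a member 364 bp downstream with 211, 83 and 100 reads in gSOC1-GFP, against 68, 6 and 13 reads in gSOC1, and a log2 enrichment of 1.18 ± 0.76. AT3G03626 had a member 5 bp upstream with 275, 64 and 76 reads in gSOC1-GFP, against 92, 9 and 9 reads in gSOC1, and a log2 enrichment of 0.90 ± 0.43. Each of these was above 0 in all 3 pairs.

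At the other called members pair 1 showed little or no enrichment. The member in the coding exon of AT1G04280, 757 bp upstream of the ribosomal protein gene RPS15, had 315, 132 and 107 reads in gSOC1-GFP, against 146, 4 and 7 reads in gSOC1, and its log2 enrichment was -0.05, 3.20 and 2.07 in pairs 1, 2 and 3. The member 273 bp downstream of AT1G75490 had 358, 84 and 79 reads in gSOC1-GFP, against 166, 5 and 10 reads in gSOC1, and values of -0.05, 2.24 and 1.14. The region between EXPA4 and RTFL8 had 237, 49 and 64 reads in gSOC1-GFP, against 137, 4 and 6 reads in gSOC1, and values of -0.37, 1.78 and 1.55. In each, gSOC1 replicate 1 had the highest share of listed reads of the 3 untagged libraries, and replicates 2 and 3 had at most 10 reads.

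AT5G25210, AT2G21130 and AT4G32290 completed the 15 called members with the best authors' rank. The member 86 bp downstream of AT5G25210 had 250, 66 and 56 reads in gSOC1-GFP, against 111, 8 and 5 reads in gSOC1. The member 44 bp downstream of AT2G21130 had 241, 67 and 50 reads in gSOC1-GFP, against 114, 3 and 9 reads in gSOC1. The member 504 bp upstream of AT4G32290 had 163, 54 and 48 reads in gSOC1-GFP, against 89, 5 and 8 reads in gSOC1. Their mean log2 enrichments were 0.95 ± 0.84, 1.06 ± 1.40 and 0.69 ± 0.95 (SD, n = 3 pairs), each of about the size of its SD. RHA2A, a RING-type ubiquitin ligase, had the 1 member above 0 in all 3 pairs that did not pass the authors' FDR, with 150, 25 and 52 reads in gSOC1-GFP, against 54, 6 and 12 reads in gSOC1, and a log2 enrichment of 0.29 ± 0.02. Scaled by listed reads, RHA2A was not above 0 in every pair.

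All 5 listed mitochondrial regions were members, and they took ranks 1, 2, 3, 18 and 65. The first, 469 bp downstream of ATMG01350, had 43, 48 and 123 reads in gSOC1-GFP replicates 1, 2 and 3, against 23, 27 and 59 reads in gSOC1. The second, in the coding exon of ATMG00090, had 37, 43 and 105 reads in gSOC1-GFP, against 22, 29 and 40 reads in gSOC1. The third, 868 bp downstream of ATMG00150, had 29, 30 and 96 reads in gSOC1-GFP, against 17, 24 and 48 reads in gSOC1. Replicate 3 had the most reads in both genotypes at each of them. By share of listed reads, gSOC1 replicate 2 (0.0706%) exceeded gSOC1 replicate 3 (0.0646%) at the region in ATMG00090.

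Together the mitochondrial regions took 0.0222%, 0.0964% and 0.152% of listed reads in gSOC1-GFP replicates 1, 2 and 3, against 0.0227%, 0.251% and 0.337% in gSOC1 replicates 1, 2 and 3. The 95% Wilson intervals, which cover counting error only, were 0.0189% to 0.0261% and 0.0185% to 0.0279% in replicate 1. In replicates 2 and 3 the intervals of the 2 genotypes did not overlap, with 0.0832% to 0.112% against 0.207% to 0.304%, and 0.138% to 0.167% against 0.295% to 0.386%. Mean log2 enrichment of the 5 regions ran from -0.89 to -0.64 and was below 0 in all 3 pairs at each with TMM scaling. By share of listed reads, 3 of the 5 were higher in gSOC1-GFP replicate 1 than in gSOC1 replicate 1, with 0.00648% against 0.0058% at ATMG01350, 0.00558% against 0.00555% at ATMG00090 and 0.00437% against 0.00429% at ATMG00150. Their direction in pair 1 thus depends on the scaling. These 3 also passed the authors' FDR in replicate 1, with values of 0.00292, 0.016 and 0.0354 in the authors' deposited table, and in no other replicate.

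The remaining members with the highest untagged share were nuclear. A region 1571 bp downstream of the AP2/ERF factor gene RAP2.4 had 327, 20 and 31 reads in gSOC1-GFP, against 319, 16 and 6 reads in gSOC1. U2.7, a gene for the U2 small nuclear RNA of the spliceosome, had 396, 32 and 30 reads in gSOC1-GFP, against 341, 8 and 8 reads in gSOC1, the most untagged reads of any member in replicate 1. A region on chromosome 3 at chr3:986251-986540, 2225 bp downstream of AT3G03852, went the other way, with 25, 30 and 17 reads in gSOC1-GFP, against 5, 28 and 26 reads in gSOC1. It was high in replicates 2 and 3 and low in replicate 1, unlike most members.

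AXR4, needed for auxin influx carrier localisation, had a member 453 bp upstream with 250, 15 and 31 reads in gSOC1-GFP, against 295, 9 and 4 reads in gSOC1. SNRK2.3, an abscisic acid signalling kinase, had one 690 bp upstream with 255, 24 and 27 reads in gSOC1-GFP, against 223, 12 and 5 reads in gSOC1. CGLD27 had one 423 bp upstream with 277, 45 and 53 reads in gSOC1-GFP, against 248, 7 and 8 reads in gSOC1. In these 3 regions replicate 1 of both genotypes, the deepest library of each, had the most reads. It also had the highest share of listed reads, by a smaller margin. At SNRK2.3 the share was 0.0563%, 0.0292% and 0.00807% in gSOC1 replicates 1, 2 and 3. Log2 enrichment at the 3 regions was -0.44 ± 1.33, -0.38 ± 0.84 and 0.26 ± 1.09 (SD, n = 3 pairs), within the spread between pairs. The other 6 of the 15 highest, near AT1G78800, AT2G41890, AT5G62950, AT1G10650, AT5G02350 and AT1G49420, had 197 to 302 reads in gSOC1-GFP replicate 1 and 220 to 276 reads in gSOC1 replicate 1.

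At the low end, the member 110 bp upstream of AT1G20760 had 93, 2 and 10 reads in gSOC1-GFP, against 77, 10 and 3 reads in gSOC1, and the lowest log2 enrichment among members below 0 in all 3 pairs, -1.52 ± 1.87. CAM5, a calmodulin gene, had a member 71 bp upstream with 145, 9 and 10 reads in gSOC1-GFP, against 133, 5 and 3 reads in gSOC1, and a log2 enrichment of -0.65 ± 0.51. The other 8 of the 10 lowest were 4 mitochondrial regions and members near AT3G06680, AT3G07340, AT2G44760 and AT4G38405, with means from -0.89 to -0.66. Replicates 2 and 3 of the nuclear ones among them rest on 3 to 10 untagged reads.

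By the position of their centre, 57.4% of members lay up to 1 kb upstream of a gene, against 42.7% of all listed regions. The 95% Wilson interval, 53.0% to 61.7%, treats the members as independent draws, although a rule chose them and 58 lie in clusters. All listed regions include the members, so the interval is no test of a difference. Up to 1 kb downstream lay 13.4% of members and 7.93% of all regions, and 1 to 3 kb upstream lay 14.2% and 13.5%. Centres within a gene were found for 10.6% of members and 31.2% of all regions. Among these, coding exons held 4.0% of members and 10.1% of all regions, introns 2.2% and 6.92%, 3′ UTRs 2.0% and 5.71%, and 5′ UTRs 1.0% and 6.75%. Members thus lay more in the flanks of genes and less in gene bodies than listed regions at large, although 52.2% of members and 55.1% of all regions touched a gene with some part.

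**Figure D5:**
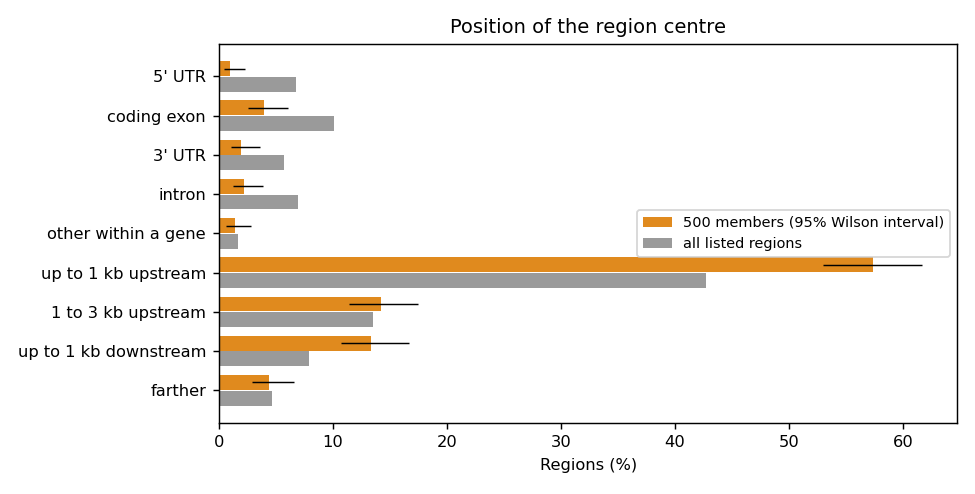
Percent of regions (x axis) by the position of the region's centre (y axis) for the 500 members, with 95% Wilson intervals, and for all listed regions. The intervals treat members as independent draws and are no test. Members exceed all regions up to 1 kb upstream, with 57.4% against 42.7%, and up to 1 kb downstream. Members lie below all regions in each class within a gene, by little in the last, with 1.4% against 1.68%.

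Members were longer, with a median of 379.5 bp against 212 bp for all listed regions, and longer regions collect more reads. Among regions of 344 to 425.25 bp, the quartile range of the members, 7.97% of 251 members and 17.5% of 1996 other regions were centred within a gene. Up to 1 kb upstream lay 59.0% of those members and 60.6% of those other regions. At matched length members were thus again less often centred within a gene, and the shares just upstream were close. Neither difference was tested. At this length the members' medians were 156, 15 and 19 reads in gSOC1-GFP replicates 1, 2 and 3 and 147, 4 and 5 reads in gSOC1, against 50, 13 and 19 reads in gSOC1-GFP and 23, 3 and 4 reads in gSOC1 for the other regions. The groups differed mainly in replicate 1 of both genotypes. In gSOC1 this follows in part from the choice, which used these reads and was led by replicate 1 at 84.2% of members.

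Of the 447 intergenic members, 42.5% lay between 2 gene starts, against 35.4% of all intergenic regions, 46.8% against 54.4% lay between a start and an end, and 10.7% against 10.1% lay between 2 gene ends. The nearest facing gene start was at a median of 307 bp from the members' centre and 327 bp for all regions. Within 100 bp of a start lay 9.77% of members and 24.2% of all regions, and 100 to 200 bp away lay 28.3% and 17.2%. A region's length limits how near to a gene its centre can lie without overlapping it, and this was not separated from the distances.

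Members were spread over the chromosomes, with 133, 61, 110, 80 and 111 on chromosomes 1 to 5, which is 1.60% to 2.35% of the regions listed on each. In bins of 1 Mb, 20 of 121 bins held no member, and these had a median of 79.5 listed regions against 227 over all bins. Neighbouring members less than 10 kb apart formed 26 clusters with 58 members. The largest held 4 members on chromosome 5 from 141282 to 145699, near AT5G01335, the mitochondrial carrier gene mSFC1 and AT5G01350, with 122 to 190 reads in gSOC1-GFP replicate 1 and 119 to 160 in gSOC1 replicate 1.

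The members were assigned to 814 genes, 3.55% of the 22909 genes assigned to any listed region, and 22 members had no gene within the windows used. Of the gene types, protein-coding genes had a member at 3.59%, pseudogenes at 1.05%, transfer RNA genes at 5.25% (21 of 400) and small nuclear RNA genes at 2 of 11. Both small nuclear RNA genes encode U2. The member over U2.5 had 228, 23 and 38 reads in gSOC1-GFP replicates 1, 2 and 3, against 210, 5 and 5 reads in gSOC1.

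Transfer RNA genes, which RNA polymerase III transcribes from promoters inside the gene, mostly lay beside the centres of their members. Of the 21 centres, 13 were downstream, 7 upstream and 1 within, and 20 were within 300 bp. A member can still reach into the gene, since its ends lie farther out than its centre. The highest by untagged share was 355 bp long, was centred 153 bp upstream of AT4G34975 and reached into it. It had 258, 20 and 23 reads in gSOC1-GFP, against 210, 3 and 13 reads in gSOC1. Log2 enrichment at the 21 ran from -0.59 to 0.77 with a median of -0.28, near the -0.31 of all members. The highest, 0.77 ± 2.77 at AT2G03700, rests on 0 reads in gSOC1 replicate 2. The lowest was -0.59 ± 0.73 at AT2G07792 (SD, n = 3 pairs each).

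No ribosomal RNA gene was assigned to any listed region. Among gene families that are usually expressed at high levels, 5 of 32 actin, tubulin and ubiquitin genes had a member, as did 3 of 33 cytosolic ribosomal protein genes, 2 of 18 light-harvesting and Rubisco small subunit genes, 1 of 18 core histone genes and 1 of 21 heat shock protein genes, beside 3.55% of all genes. These lists hold only genes matched by symbol or synonym, so family members known only by a locus number are missed. The counts are thus of the matched genes, and how many genes of the whole families had a member was not counted. TUB2, a beta-tubulin, had a member 499 bp upstream with 209, 18 and 34 reads in gSOC1-GFP, against 183, 13 and 7 reads in gSOC1. LHCB4.1, a light-harvesting antenna protein of photosystem II, had one 28 bp downstream with 196, 41 and 26 reads in gSOC1-GFP, against 137, 12 and 9 reads in gSOC1. Neither was enriched beyond its spread, with log2 values of -0.59 ± 0.92 and -0.30 ± 0.32 (SD, n = 3 pairs).

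ACT11, TUA4, UBQ1, UBQ5, RPS15AD, RPS28, LHCA2 and HSC70-1 had members with mean log2 enrichment from -0.53 to 0.00, and the region of RPS15AD is also that of the histone gene HTB11. RPS15 was the exception, through the member in AT1G04280 described above. Of 18 genes named as SOC1 targets in earlier results of these data, SOC1 alone had a member, and of 8 flowering integrator genes, FT, FUL, LFY, AP1, AGL24, FLC, TFL1 and FD, none did. Of 102 microRNA genes, 4 (3.92%) had a member, MIR779, MIR399c, MIR156b and MIR156h, a share near that of all genes. The last pair, named with values after these were seen because miR156 delays flowering, had members 2507 and 746 bp upstream. The member of MIR156b had 183, 15 and 17 reads in gSOC1-GFP, against 128, 7 and 3 reads in gSOC1, and that of MIR156h had 54, 15 and 29 reads in gSOC1-GFP, against 42, 14 and 6 reads in gSOC1.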

How the data were processed

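The deposited table gives raw read counts per region and library, not normalized by the authors, per the file headers. In the authors' notes on the columns, the p-value columns of the deposited table are Benjamini-Hochberg q-values (FDR) for each replicate. The authors' log2 column is a log2 rank product over replicates, and the authors' rank score orders regions by it, per the same deposited notes. Per the submitters' processing notes the build was TAIR10. The aligner, the region caller and any read filters were not given in the sources used here. Region starts follow the deposited table, which does not say if its first base is 0 or 1. Identifiers run to 29948, so the table may be part of a longer list. Per the labels' protocols, fragments of 150 to 400 bp were amplified for 18 cycles.

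A gene was taken from the authors' columns if the region's centre lay within a gene, up to 3 kb upstream or up to 1 kb downstream; the RefSeq gene table (TAIR10.1) gave names and types for 801 of 814 genes (98.4%). Counts were tested with edgeR 4.0.16 in R 4.3.3 (quasi-likelihood, Benjamini-Hochberg over 24032 regions), with DESeq2 1.42.0 as an alternative. The edgeR fit was also run on simulated counts with added changes, and how many it recovered is not given here. Log2 enrichment used TMM sizes and a prior count of 1, with mean ± SD over 3 pairs. Deviations from group means in same-numbered libraries correlated at 0.498, 0.123 and 0.139, each over 0.1, so the numbers, which come from the titles, were taken to pair the samples. In replicates 2 and 3 this is not specific, since gSOC1-GFP replicate 3 with gSOC1 replicate 2 reached 0.131 and gSOC1-GFP replicate 2 with gSOC1 replicate 3 reached 0.0885. Gene names follow a rule: the 15 highest by untagged share, 5 on either side of the limit, up to 15 called by the authors' rank, the 10 highest and 10 lowest by enrichment with all pairs on 1 side of 0, and up to 10 of each gene list. The members and lists were chosen with earlier results of these data known.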

Additional observations from a re-analysis of the deposited data

How the results depend on the processing

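The calls among members rest on how members are chosen. The 16 members past the authors' FDR became 8 when chosen by pooled untagged reads, 9 by share per kb and 5 with 250 members, and 8 to 18 when 1 untagged library was left out of the choice, with 8 without replicate 3, 10 without replicate 2 and 18 without replicate 1. DESeq2 called 3 members, beside 94 of the 5822 regions to which it gave an adjusted p. With edgeR, the 0 members without a block became 1 with the replicate block, beside 91 of all regions. A filter on low counts gave 2, beside 56 of the 8130 regions that passed it. Leaving out libraries gave 0 to 4, highest without replicate 1 of both genotypes (4, beside 86 of all regions) and 2 without gSOC1 replicate 1 (beside 51); with the replicate block and a replicate left out, chosen after seeing the data, the counts were 3, 2 and 0, beside 71, 119 and 69 of all regions. The block changed the call of the SOC1 region 89 bp upstream and of no other named region. With 1000 members, gSOC1-GFP libraries held a mean of 12.7% and gSOC1 libraries 17.0% of listed reads. Members among the top regions of the summed gSOC1-GFP shares numbered 202 of 500, 65 of 250 and 375 of 1000. Centres within a gene were 9.0% to 14.4% with a library left out of the choice and 7.97% within the length quartiles, and 52.2% of members touched a gene. Centres up to 1 kb upstream were 62.5% with 1000 members and 56.0% to 63.4% with a library left out. The median length was 367.5 bp by pooled reads, 339.5 bp by share per kb, 389.0 bp with 250 members, 368.0 bp with 1000, and 372.0, 373.0 and 392.5 bp without replicates 2, 3 and 1 in the choice. The causes were not tested. The members' median log2 enrichment was -0.31, and 0.02 without replicate 1. Of the settings of these results, 66 stayed within the limit used, some of them given above, and 28 moved beyond it. The limit was the replicate spread, or 1.5 times for counts. For location and length it was a 95% interval over the 500 members. For the members' median log2 enrichment the limit was 0.66, so the move to 0.02 without replicate 1 counts among the 66. So does the fall of the mean gSOC1 share from 9.99% to 5.71% with 250 members. The mean log2 enrichment of the 16 called members kept its sign in all 96 combinations of region and setting. The calls used these same counts, so the sign was largely set in advance and nothing is read from it. With TMM scaling 10 of the 16 were above 0 in all 3 pairs. The other named regions were not recomputed under these settings. Depth limits replicates 2 and 3, where the median member has 5 and 6 untagged reads.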
